A study of Mus musculus with 12 samples.

Results

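The comparison described here sets 2 protectants side by side in cells that received the same anthracycline. H9c2 cells were harvested for poly(A) RNA sequencing after 6 h of exposure to doxorubicin (DOX) together with either magnesium hexacyanoferrate nanocatalysts (MgHCF) or dexrazoxane (DXZ). The groups are named D_MgHCF and D_DXZ and hold 3 libraries each, that is 6 of the 12 libraries of the series. The other 6 libraries came from untreated cells (Unt) and from cells given DOX alone, at the same 6 h, and are used only as a background. H9c2 is an established cardiomyoblast line, which the study describes as rat, whereas the labels give mouse as the organism and the deposited genes carry mouse Ensembl identifiers with GRCm38 coordinates. DOX was present in both groups compared, and no group with a protectant alone was used here. How much DOX, MgHCF or DXZ the sequenced cells received is not given in the sources used here. The labels do not say whether the 3 libraries of a group came from separate cultures, so the p-values measure the spread between these libraries, which may be technical. Members were the genes with FPKM (fragments counted per kilobase of exon and scaled between libraries) of at least 1 in at least 3 of the 6 libraries, which kept 11652 of the 54345 genes in the file.

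Doxorubicin is an anthracycline that intercalates into DNA, traps topoisomerase II on cut DNA, displaces histones and disturbs transcription, and it undergoes redox cycling in which iron takes part. Dexrazoxane is a cyclic compound that is opened inside cells to an iron chelator and that also inhibits topoisomerase II without leaving the DNA cut. Magnesium hexacyanoferrate is an analogue of Prussian blue, used as nanoparticles that take up ferrous iron and break down superoxide and hydrogen peroxide. Both agents are thus directed at iron, so that genes of iron handling, of antioxidant defence, of DNA damage and of cell death are natural points of comparison, beside the general machinery of RNA and protein synthesis that DOX disturbs.

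The largest rise among protein-coding genes whose mean FPKM reached 10 in either group was that of Btg2, an antiproliferative gene induced by p53 and by growth signals. Also among the 12 largest rises was Dusp1, a phosphatase that switches off MAP kinases. Their promoters are shown because both hold the palindromic cyclic AMP response element, TGACGTCA, which is printed in capitals. The sequences are RefSeq promoters of the build GRCm38.p6, read 5′ to 3′ on the minus strand, from chr1:134079156-134079405 for Btg2 and from chr17:26508520-26508722 for Dusp1. The Dusp1 sequence leaves out the last 47 bases before the RefSeq start, which lie inside the gene model of the file.
Btg2: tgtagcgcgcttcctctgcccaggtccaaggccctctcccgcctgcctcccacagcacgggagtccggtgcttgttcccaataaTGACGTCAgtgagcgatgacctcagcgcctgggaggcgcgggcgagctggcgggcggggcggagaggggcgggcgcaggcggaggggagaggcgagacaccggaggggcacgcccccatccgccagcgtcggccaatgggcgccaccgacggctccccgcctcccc
Dusp1: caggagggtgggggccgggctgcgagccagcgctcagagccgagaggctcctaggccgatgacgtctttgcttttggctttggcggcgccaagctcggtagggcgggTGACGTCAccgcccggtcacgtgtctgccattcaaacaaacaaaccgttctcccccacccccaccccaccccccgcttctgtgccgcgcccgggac
The first base of the element lay 166 bases before the RefSeq start of Btg2 and 143 bases before that of Dusp1.

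In FPKM, Btg2 (ENSMUSG00000020423, chromosome 1 from 134075170 to 134079120) stood at 1.94, 0.946 and 1.04 in D_DXZ replicates 1, 2 and 3 and at 26.2, 48.3 and 52.1 in D_MgHCF replicates 1, 2 and 3. In the order of the replicates it was at 3.01, 2.997 and 2.92 in Unt and at 8.48, 3.38 and 1.73 in DOX, so that the D_MgHCF libraries lay above every other library of the series. The mean ratio of D_MgHCF to D_DXZ was 32.3 (log2 fold change 4.19, standard error 0.29, adjusted p = 9.36e-05 in limma, with Benjamini-Hochberg adjustment over all genes tested). Dusp1 (ENSMUSG00000024190, chromosome 17 from 26505590 to 26508519) was at 1.08, 0.821 and 0.805 in D_DXZ and at 13.1, 13.8 and 17.3 in D_MgHCF (log2 fold change 3.04, standard error 0.19, adjusted p = 9.36e-05). The D_DXZ levels of both genes lay below those in Unt, at 3.49, 3.33 and 3.34 for Dusp1, while the D_MgHCF levels lay above.

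Over all 11652 genes, limma on log2(FPKM + 1) of the 6 libraries called 3400 genes higher (29.2%) and 4066 lower (34.9%) in D_MgHCF than in D_DXZ at an adjusted p under 0.05. Together these were 7466 genes (64.1%), and the libraries of the groups did not overlap for 8092 genes (69.4%). Of the called genes, 2050 were at least 2-fold higher and 2505 at least 2-fold lower on this scale, in which the pseudocount of 1 makes the changes of low genes smaller. The median log2 fold change of all genes tested was -0.08. With a background this high, a share of called genes in a gene list is read below against 29.2% and 34.9%, and a list median against -0.08. Levels are FPKM in the order of replicates 1, 2 and 3, and a rise or fall given as a single number is a log2 fold change of D_MgHCF against D_DXZ that passed the same test. Of the genes tested, 10141 had a mean FPKM of at least 1 in both groups, 1054 in D_MgHCF alone and 442 in D_DXZ alone. A gene that passed the filter through a single group was bound to differ, and 883 of the 1054 were called higher and 303 of the 442 lower. Genes named in the text that were among the 1054 include Dusp1, Eda2r, Nr1d1, Oas1c, Psmb8 and Slc2a4. This limit holds for their rises and for their part in the list counts. Among the 10141 genes, 2517 were higher and 3763 lower.

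The 6 libraries held 16626514 to 18107499 reads on genes, recovered as whole numbers from the FPKM. In the order of the replicates, 10849, 10797 and 10637 genes reached an FPKM of 1 in D_DXZ and 12870, 12256 and 11357 in D_MgHCF. The part of this difference in the rises of low genes was not tested. The scaling contained in the deposited FPKM multiplied the values by 1.12 to 1.34 in D_DXZ and by 0.698 to 0.791 in D_MgHCF relative to the summed reads. The balance of higher and lower calls differed with the scaling. With FPKM rescaled to the same total (TPM), 6170 genes were called higher and 1086 lower, a shift of the median by 0.935, and with FPKM over the summed reads 5465 were higher and 1731 lower, a shift by 0.622. With FPKM rescaled to the same total of protein-coding genes, an alternative chosen after seeing the data, 5695 were higher and 1488 lower. The TPM counts of a list given below are to be read against the 6170 higher and 1086 lower of all 11652 genes tested. The amount of RNA per cell was not measured, so that fewer cells, less RNA per cell and a lower share of the RNA cannot be told apart, and the statements below concern a gene relative to the other genes. Pearson correlations of log2(FPKM + 1) were 0.986 to 0.991 among D_DXZ libraries, 0.892 to 0.975 among D_MgHCF libraries and 0.797 to 0.855 between the groups. D_MgHCF replicate 3 stood apart from replicates 1 and 2, and without it 3775 genes were higher and 4616 lower. Of 15 myoblast and muscle markers, 3 (Cdh2, Tnnc1 and Acta1) had a mean FPKM of at least 1 over the 6 libraries. The myoblast factors Myod1, Myf5 and Myog were near 0. Des was at 0.339 to 1.24 and Tnnt2 at 0.35 to 0.58 in the 6 libraries. The summed FPKM of the 15 was 25.5 to 28.6 in D_DXZ and 15 to 22.2 in D_MgHCF. Of the endothelial markers 0 of 7 and of the epithelial markers 0 of 6 reached a mean of 1, with sums of 0.144 to 0.61 and 0.067 to 0.244 in D_DXZ against 0.311 to 1.48 and 0.424 to 1.66 in D_MgHCF. Of the macrophage and leukocyte markers Cd14 and Cd68 reached it, the sum was 6.04 to 8.03 in D_DXZ and 4.91 to 11 in D_MgHCF, and the defining gene Ptprc was near 0. The part of these cell types in the results was not tested.

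Some RNAs that lack a usual poly(A) tail or are short differed widely between the groups, and those named here were chosen after their values were seen. Rn7sk, the 7SK RNA that holds P-TEFb inactive, had the largest fall of all genes tested. It was at 1364, 844 and 1429 in D_DXZ and at 6.47, 2.37 and 3.82 in D_MgHCF, a log2 fold change of -7.90 (SE 0.32, adjusted p = 2.84e-05 in limma), against 3.36, 1.51 and 2.72 in Unt and 1143, 1992 and 2800.2 in DOX. D_MgHCF thus lay near Unt and D_DXZ within or below the range of DOX, with no overlap between the groups. The mitochondrial rRNA mt-Rnr1 was at 4696, 6741 and 6597 in D_DXZ and at 1449.5, 721 and 256 in D_MgHCF (log2 fold change -3.20, SE 0.57, adjusted p = 0.00142 in limma), and mt-Rnr2 fell by 2.94. Gm23935, a gene model of 57 bases annotated as a miRNA, fell by 2.66 and made up 11.8% to 13.5% of the summed FPKM in D_DXZ and 2.83% to 7.15% in D_MgHCF. Of the reads, the mitochondrial rRNAs held 0.819% to 0.975% in D_DXZ and 0.0814% to 0.359% in D_MgHCF, against 0.043% to 0.0467% in Unt and 0.813% to 0.945% in DOX. Protein-coding genes held 96.1% to 96.3% in D_DXZ and 96.6% to 97.8% in D_MgHCF. How much of such RNA passed the poly(A) selection and how much the cells held cannot be told apart, and its part in the results below was not tested.

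**Figure D1:**
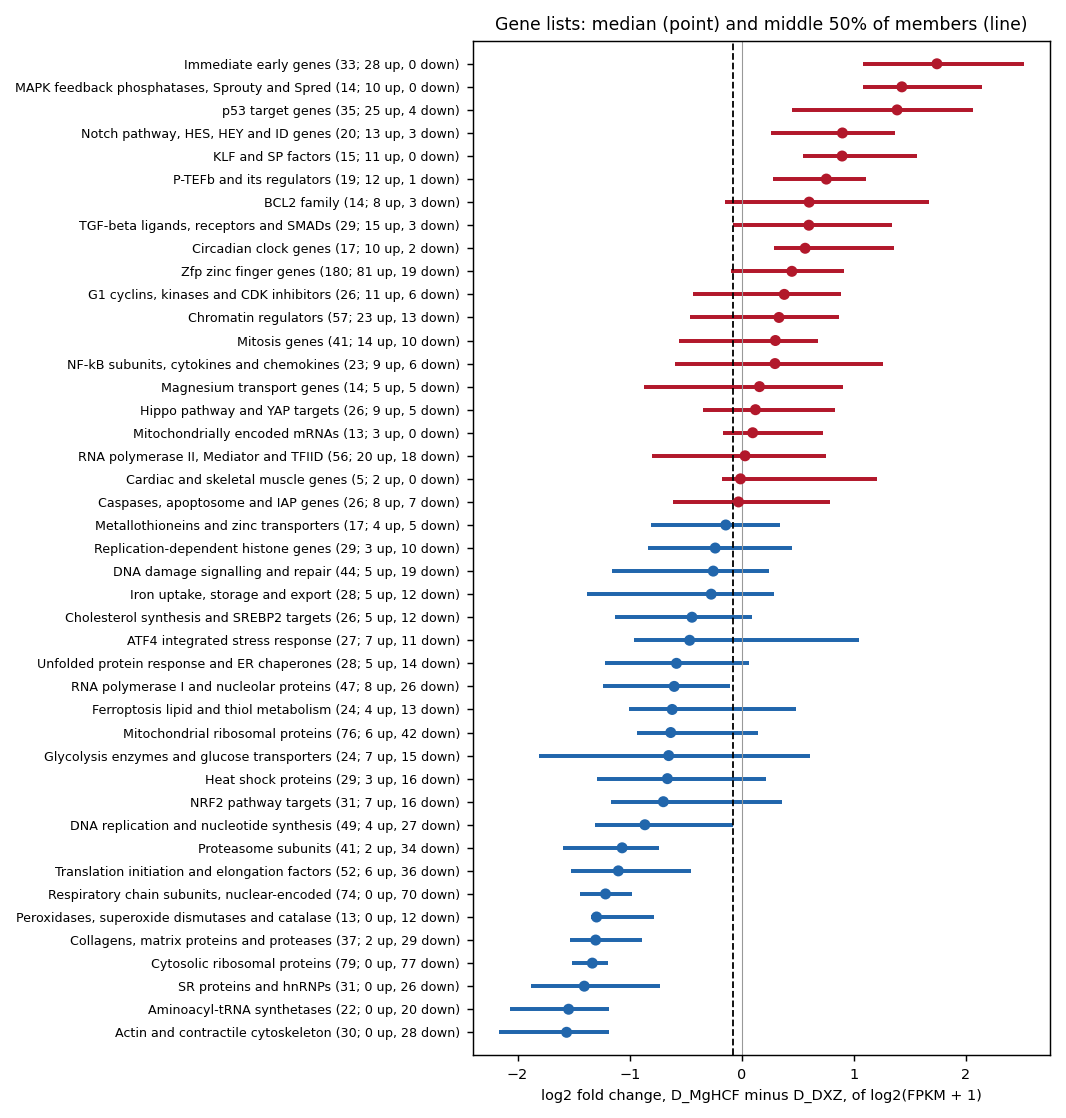
Median (points) and middle 50% (lines) of the log2 fold changes of D_MgHCF minus D_DXZ, on the x axis, for 43 gene lists on the y axis, each with the number of genes tested and called in either direction. The dashed line marks the median of all genes tested, -0.08, red lists lie above it and blue lists below, from 1.74 for the immediate early genes down to -1.56 for the actin genes.

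Immediate early genes are transcription factors and feedback regulators that are switched on without new protein synthesis. Of the 33 tested members, 28 were higher and 0 lower in D_MgHCF, with a median log2 fold change of 1.74, the highest of the 43 lists. The mean log2(FPKM + 1) over these genes was 2.46, 2.31 and 2.03 in the D_DXZ libraries and 4.22, 4.22 and 3.70 in the D_MgHCF libraries, with no overlap. Fosl1, a partner of JUN in the AP-1 factor, was at 4.79, 3.31 and 3.68 in D_DXZ and 53.2, 48.8 and 18.3 in D_MgHCF (log2 fold change 2.93, standard error 0.37, adjusted p = 0.000317). Atf3, a stress-induced relative of these factors, had FPKM of 3.39, 3.93 and 1.599 in D_DXZ and of 21.8, 32.99 and 24.6 in D_MgHCF (log2 fold change 2.82, standard error 0.27, adjusted p = 0.00014). The feedback genes of the MAP kinase pathway moved the same way, with 10 of 14 higher, 0 lower and a median of 1.43. Among them, Dusp14 rose by 2.53 and Dusp5 by 2.42 on the log2 scale. The value for Dusp5 moved with D_MgHCF replicate 3, without which it was 3.04. Fosl1 shares a near-identical stretch with Ccdc85b, which could have divided its reads. The lists share members and are not separate evidence. Btg2 counts among both the immediate early genes and the p53 targets below. Dusp1 counts among both the immediate early and the feedback genes, and Cdkn1a among both the p53 targets and the G1 genes.

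Genes induced by p53, the factor that answers DNA damage with arrest or death, were also higher in the main. Of the 35 tested, 25 were higher and 4 lower, with a median of 1.39. Cdkn1a (ENSMUSG00000023067, chromosome 17 from 29090979 to 29100722), which encodes the cell cycle inhibitor p21, was at 4.01, 5.698 and 3.23 in D_DXZ and at 50.02, 69.4 and 124 in D_MgHCF, a mean ratio of 18.8 (log2 fold change 3.88, standard error 0.33, adjusted p = 0.000116). In Unt it was at 8.37, 7.81 and 8.76 and in DOX at 23.8, 9.05 and 6.49, so the D_MgHCF libraries again lay above the other 9. Eda2r, a receptor of the TNF receptor superfamily, was at 0.484, 0.557 and 0.699 in D_DXZ and 15.98, 24.3 and 29.9 in D_MgHCF (log2 fold change 3.91, standard error 0.24, adjusted p = 9.36e-05). Eda2r passed the filter through the D_MgHCF libraries alone. Trp53, which encodes p53 itself, was at 55.1, 51.9 and 58.5 in D_DXZ and 26.4, 29.3 and 35.1 in D_MgHCF (log2 fold change -0.85, standard error 0.17, adjusted p = 0.00278). Its sign turned with TPM scaling (0.17, not called), still below the median of 0.85 over all genes tested. Among the lower members, Perp, a desmosomal protein that takes part in p53-dependent death, fell by 1.36. The call of Perp was lost with TPM scaling, where its log2 fold change was -0.35.

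Genes of the G1 phase moved in both directions. Of 26 tested, 11 were higher and 6 lower (median 0.38). Cdkn2d, an inhibitor of the kinases CDK4 and CDK6, was at 5.08, 4.46 and 1.95 in D_DXZ and 29.6, 37.1 and 36.8 in D_MgHCF (log2 fold change 2.94, standard error 0.28, adjusted p = 0.000132), and Cdkn2c, a related inhibitor, rose by 1.41. The cyclin they oppose, Ccnd1, was at 149, 164 and 186 in D_DXZ and 24.8, 15.7 and 17.5 in D_MgHCF, a mean ratio of 8.62 in favour of D_DXZ (log2 fold change -3.06, standard error 0.21, adjusted p = 9.36e-05). Its partner Cdk4 fell by 1.84 on the log2 scale. Cdkn2a, another CDK inhibitor gene of this list, went the other way from Cdkn2d and Cdkn2c and fell (-1.78). Cdk4 shares sequence and position with Tspan31, and Ccnd1 overlaps Oraov1.

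Further transcription factors were examined by family. Of 15 KLF and SP factors, 11 were higher and 0 lower (median 0.90). Klf4, a factor of proliferation control and pluripotency, was at 8.09, 4.88 and 2.82 in D_DXZ, 19.1, 20.5 and 16.2 in D_MgHCF and 25.6, 28.7 and 27.5 in Unt (log2 fold change 1.73, standard error 0.30, adjusted p = 0.00122). Klf9 and Klf10 rose by 1.73 and 1.68. Genes named Zfp, which encode zinc finger proteins, had 81 of 180 higher and 19 lower (median 0.45), with Zfp703 at 2.96, 2.6995 and 1.94 in D_DXZ and 15.6, 16.9 and 15.3 in D_MgHCF (log2 fold change 2.27, standard error 0.18, adjusted p = 0.000107). With quantile normalization, however, 57 Zfp genes were higher and 28 lower. Zfp703 overlaps and resembles the gene model Gm45371.

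The circadian clock is a loop in which activators switch on their own repressors. Of 17 clock genes tested, 10 were higher and 2 lower (median 0.57). Nr1d1, which encodes the repressor REV-ERB alpha, was at 1.21, 0.843 and 0.414 in D_DXZ and 7.47, 8.72 and 9.45 in D_MgHCF (log2 fold change 2.41, standard error 0.21, adjusted p = 0.000123). Cry1, a repressor of the same loop, was at 4.599, 3.495 and 2.89 in D_DXZ and 28.5, 30.6 and 13.97 in D_MgHCF (log2 fold change 2.39, standard error 0.30, adjusted p = 0.000316), while the activator Arntl rose by 1.56. Nr1d1 overlaps Thra on the genome, and reads of the pair cannot be told apart without strand information.

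Receptor pathways of the cell surface showed a mixture. Of 20 genes of the Notch pathway with the HES, HEY and ID factors, 13 were higher and 3 lower (median 0.90). The receptor gene Notch1 was at 1.14, 1.21 and 1.16 in D_DXZ and 5.803, 6.51 and 11.01 in D_MgHCF (log2 fold change 1.97, standard error 0.24, adjusted p = 0.000269). Id2, an inhibitor of differentiation factors, was at 5.11, 3.13 and 2.55 in D_DXZ and 19.99, 23.01 and 5.53 in D_MgHCF, with a log2 fold change of 1.73 that became 2.33 without D_MgHCF replicate 3. In the TGF-beta family, 15 of 29 genes were higher and 3 lower (median 0.60). Smad3, which carries the TGF-beta signal to the nucleus, was at 4.76, 2.92 and 2.36 in D_DXZ and 14.3, 13.7 and 14.98 in D_MgHCF (log2 fold change 1.85, standard error 0.22, adjusted p = 0.000281), and Ski, a repressor of SMAD signalling, rose by 1.82. Ltbp1, which stores latent TGF-beta in the matrix, was at 111, 132 and 153 in D_DXZ and 29.03, 15.3 and 9.33 in D_MgHCF and fell by 2.94. In the Hippo pathway 9 of 26 genes were higher and 5 lower (median 0.12), near the share over all genes, with the adaptor gene Ajuba higher by 1.55 and the receptor kinase gene Axl lower by 1.23. Axl was not called with TPM (-0.20) or quantile normalization (-0.13).

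Of 56 genes of RNA polymerase II, Mediator and TFIID, 20 were higher and 18 lower (median 0.03), near the share over all genes. Polr2a, the catalytic subunit of RNA polymerase II, was at 49.97, 59.5 and 66.6 in D_DXZ and 360.1, 247 and 83.2 in D_MgHCF (log2 fold change 1.73, standard error 0.46, adjusted p = 0.0104). Its D_MgHCF levels differed widely, and without replicate 3 the log2 fold change was 2.34. Med18, a subunit of the Mediator head, rose by 1.72, whereas Med30, another Mediator subunit, fell by 1.83 and Polr2i, a small polymerase subunit, by 1.58. P-TEFb, the kinase that releases paused RNA polymerase II, and its regulators were higher in 12 of 19 cases and lower in 1 (median 0.76). Aff1, a scaffold of the elongation complex, rose by 1.54. Brd2, a bromodomain reader of acetylated histones, was at 18.2, 14.8 and 12.3 in D_DXZ and 41.2, 45.6 and 31.6 in D_MgHCF (log2 fold change 1.33, standard error 0.21, adjusted p = 0.000835). The lower member was Larp7, which holds the inhibitory 7SK particle together, at 57.1, 64.9 and 69.2 in D_DXZ and 21.5, 18.6 and 17.2 in D_MgHCF (log2 fold change -1.69, standard error 0.17, adjusted p = 0.000156). The RNA of that particle, Rn7sk, was lower by the log2 fold change of -7.90 given above, and whether the values are linked was not tested. Chromatin regulators were higher in 23 and lower in 13 of 57 cases (median 0.33), with the histone demethylase gene Kdm5b higher by 1.71, the remodelling subunit gene Arid1a higher by 1.52 and the remodelling ATPase gene Smarca4 lower by 2.03. The Larp7 reads may be shared with the copy Gm12666, and those of Brd2 with H2-DMa.

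RNA-binding and ribosome-building genes lay on the other side. Of 31 SR proteins and hnRNPs, which guide splicing and carry mRNA, 0 were higher and 26 lower (median -1.41). Srsf6 was at 48.3, 49.9 and 54.1 in D_DXZ, 7.12, 7.68 and 10.6 in D_MgHCF and 54.3, 58.4 and 57.3 in Unt (log2 fold change -2.47, standard error 0.19, adjusted p = 9.36e-05). Hnrnpa2b1 was at 306, 382 and 381 in D_DXZ and 85.03, 56.1 and 43.99 in D_MgHCF (log2 fold change -2.56, standard error 0.26, adjusted p = 0.000154), and Hnrnpa1, which has 9 near-identical copies, fell by 2.57. Genes of RNA polymerase I and of the nucleolus, where ribosomes are assembled, were lower in 26 and higher in 8 of 47 cases (median -0.60, with TPM 10 lower and 15 higher). Ncl, the abundant nucleolar protein nucleolin, was at 194, 215 and 251 in D_DXZ and 45.5, 44.5 and 24.95 in D_MgHCF (log2 fold change -2.53, standard error 0.26, adjusted p = 0.000154), and Dkc1, the pseudouridine synthase of the nucleolus, fell by 2.80. Cd3eap, a subunit of RNA polymerase I that overlaps Ercc1, went the other way and rose by 2.07.

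The translation apparatus was lower as well. Of 79 cytosolic ribosomal protein genes, 77 were lower and 0 higher, with a median of -1.33 and a middle 50% between -1.51 and -1.19. Their mean log2(FPKM + 1) was 8.57, 8.92 and 8.78 in the D_DXZ libraries, 7.83, 7.43 and 6.95 in D_MgHCF and 7.34, 7.42 and 7.47 in Unt. Rpl4 was at 1101, 1343 and 1361 in D_DXZ and 419.7, 285 and 248 in D_MgHCF (log2 fold change -2.02, standard error 0.26, adjusted p = 0.000367). The counts depended on the scaling. With TPM 27 of the genes were lower and 1 higher, compared with 1086 lower and 6170 higher of all 11652 genes tested. With quantile normalization 7 were lower and 6 higher, at a median of -0.09. Translation factors were lower in 36 and higher in 6 of 52 cases (median -1.10). Eif4g1, the scaffold of the cap-binding complex, was at 334, 371 and 431 in D_DXZ and 81.8, 63.1 and 70.4 in D_MgHCF (log2 fold change -2.38, standard error 0.20, adjusted p = 0.000109), whereas Eif4ebp2, a repressor of the same complex, rose by 1.58. Eif5a, an elongation factor, fell by 2.51. Many ribosomal protein genes have processed pseudogenes, and Rpl4 matches Gm5835 and Rps26 matches 4 other genes.

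Aminoacyl-tRNA synthetases charge tRNAs with their amino acids. Of 22 such genes, 20 were lower and 0 higher (median -1.55), and 14 were still lower with quantile normalization and 10 with TPM, where 2 were higher. Farsb (ENSMUSG00000026245, chromosome 1 from 78417975 to 78488897), a subunit of the phenylalanine enzyme, was at 45.4, 39.6 and 44.9 in D_DXZ, 3.63, 2.82 and 5.78 in D_MgHCF and 35.6, 36.8 and 35.3 in Unt (log2 fold change -3.16, standard error 0.23, adjusted p = 9.36e-05). The aspartate enzyme gene Dars fell by 2.75 and the threonine enzyme gene Tars by 2.72.

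Of 41 proteasome subunit genes, 34 were lower and 2 higher (median -1.07). Psmb2, a subunit of the core particle, was at 164, 176 and 206 in D_DXZ and 19.2, 19.9 and 34.6 in D_MgHCF (log2 fold change -2.88, standard error 0.25, adjusted p = 0.000118), and the regulatory subunit gene Psmd1 fell by 2.85. The genes that rose were Psmb9, which encodes an interferon-inducible subunit of the immunoproteasome and was at 0.965, 1.75 and 1.02 in D_DXZ and 5.39, 6.26 and 5.51 in D_MgHCF (log2 fold change 1.60, standard error 0.20, adjusted p = 0.000296), and Psmb8, another such subunit, at 0.8603, 0.892 and 0.9305 in D_DXZ and 2.84, 1.51 and 1.28 in D_MgHCF (log2 fold change 0.56, standard error 0.22, adjusted p = 0.0473). The call of Psmb8 was lost without any 1 of the D_DXZ libraries and without D_MgHCF replicate 1 or 2, where its log2 fold change was 0.34 and 0.64. Psmb8 also passed the filter through the D_MgHCF libraries alone. Under TPM scaling 12 subunit genes were lower and 7 higher.

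The respiratory chain is built from subunits of the nuclear and of the mitochondrial genome. Of 74 nuclear-encoded respiratory chain subunits, 70 were lower and 0 higher (median -1.22, middle 50% from -1.44 to -0.98). Atp5g3, a membrane subunit of ATP synthase, was at 207, 249 and 253 in D_DXZ, 64.2, 52.4 and 44.8 in D_MgHCF and 63.7, 60.8 and 73.95 in Unt (log2 fold change -2.12, standard error 0.20, adjusted p = 0.00013). Atp5c1, of the ATP synthase stalk, fell by 2.37. With TPM 22 of them were lower and 6 higher, and with quantile normalization 24 and 4. Of the 13 mRNAs encoded in the mitochondrial genome, 3 were higher and 0 lower (median 0.10). Among them mt-Cytb, cytochrome b of complex III, was at 958, 1199.7 and 914 in D_DXZ and 1859, 1917 and 1344 in D_MgHCF (log2 fold change 0.73, standard error 0.27, adjusted p = 0.0427), a call that was lost without replicate 1, 2 or 3 of D_DXZ and without replicate 1 or 2 of D_MgHCF, where the log2 fold change lay between 0.64 and 0.85. The complex I mRNA mt-Nd3 rose by 1.15. The 10 mitochondrial mRNAs that were not called included mt-Co1 at -1.10 and mt-Co2 at -0.57. The rRNAs of the same genome were lower, at -3.20 for mt-Rnr1 and -2.94 for mt-Rnr2. With quantile normalization 7 of the mitochondrial mRNAs were higher, at a median of 1.37. Mitochondrial ribosomal proteins, which serve these mRNAs, were lower in 42 and higher in 6 of 76 cases (median -0.63, with TPM 8 lower and 26 higher), with Mrpl42 lower by 2.07 and Mrpl46 higher by 2.18.

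Glycolysis and sterol synthesis were divided. Of 24 glycolytic genes and glucose transporters, 15 were lower and 7 higher (median -0.65, with TPM 7 lower and 9 higher). Ldha, the lactate dehydrogenase subunit, was at 1080.4, 1198 and 1368 in D_DXZ and 241, 198 and 157 in D_MgHCF (log2 fold change -2.62, standard error 0.24, adjusted p = 0.000125), and the mutase gene Pgam1 fell by 2.34. Both have pseudogenes with near-identical sequence. The transporter gene Slc2a1 was at 8.71, 5.66 and 5.34 in D_DXZ and 18.1, 20.96 and 15.1 in D_MgHCF (log2 fold change 1.35, standard error 0.22, adjusted p = 0.000991), against 24.4, 24.4 and 24.8 in Unt. Slc2a4, the insulin-responsive transporter, rose by 1.75 from 0.125, 0.0658 and 0.0646 in D_DXZ to 2.57, 2.54 and 2.83 in D_MgHCF. It passed the filter through the D_MgHCF libraries alone, so that a rise was bound to follow. In cholesterol synthesis 12 of 26 genes were lower and 5 higher (median -0.44, with TPM 2 lower and 12 higher). The rate-controlling epoxidase gene Sqle rose by 1.34, while Lss, the cyclase that follows it, fell by 1.60, and so did Acat2, an acetyl-CoA thiolase, by 1.59. The median of the cholesterol list turned above that of all genes with a filter at a mean FPKM of at least 5, by 0.09.

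**Figure D2:**
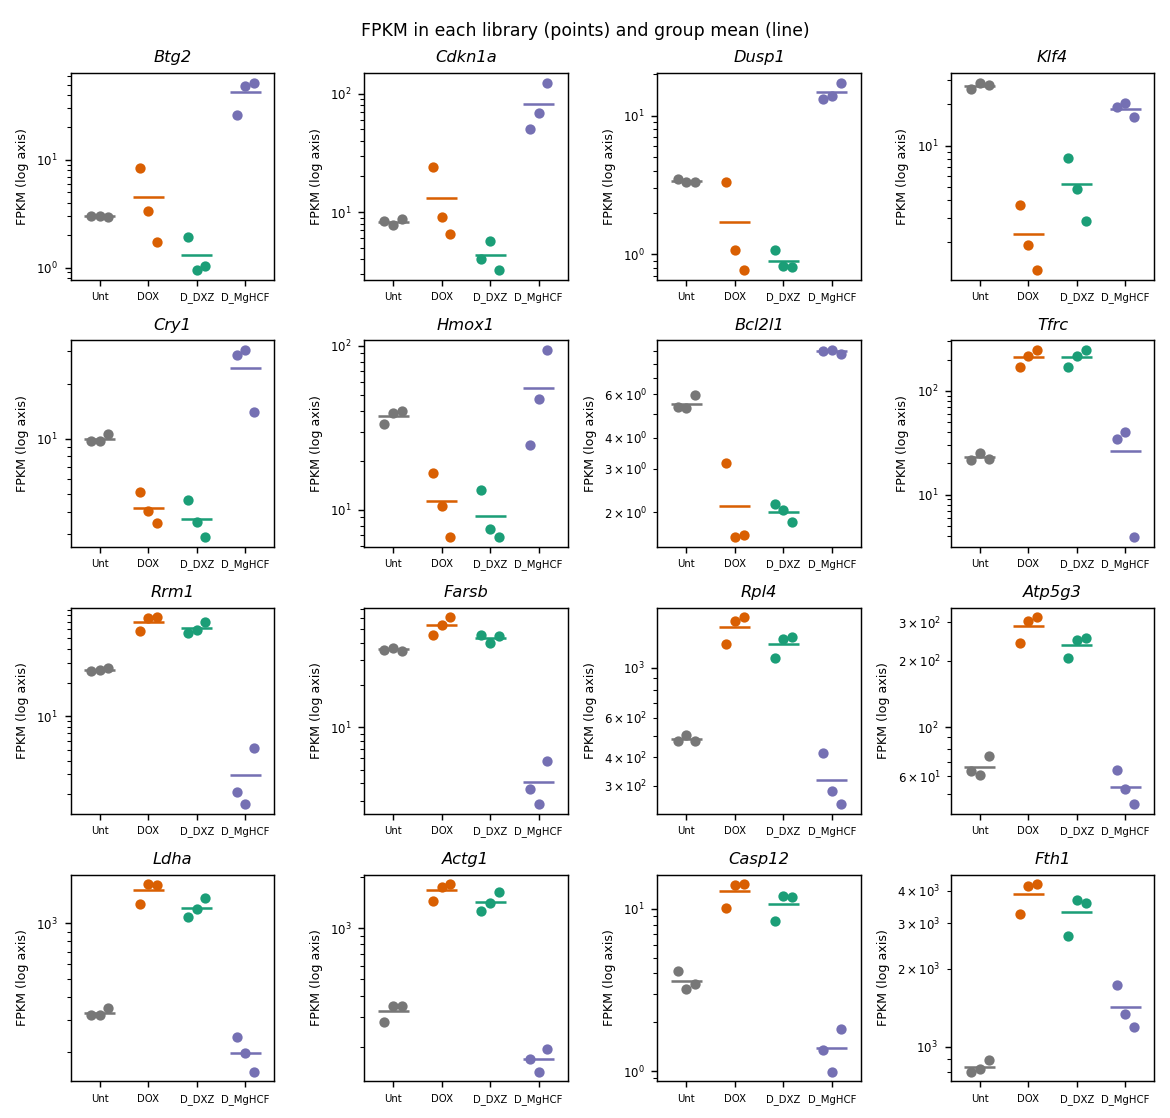
FPKM on a log axis in each of the 3 libraries (points) and the group mean (line) of Unt, DOX, D_DXZ and D_MgHCF for 16 genes. The D_MgHCF libraries lie apart from the D_DXZ libraries for each of the 16 genes.

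Iron handling is where both agents are meant to act. Of 28 tested genes of iron uptake, storage and export, 12 were lower and 5 higher (median -0.27, with TPM 6 lower and 12 higher). Tfrc (ENSMUSG00000022797, chromosome 16 from 32608920 to 32632794), the transferrin receptor through which iron enters the cell, was at 169, 216 and 245 in D_DXZ and at 34.2, 40.5 and 3.87 in D_MgHCF (log2 fold change -3.44, standard error 0.70, adjusted p = 0.00278). In DOX it was at 172, 216 and 249, over the same range as in D_DXZ, and in Unt at 21.6, 25.2 and 22.2. Replicate 3 was far below the other D_MgHCF libraries, and without it the log2 fold change was -2.45. The Tfrc mRNA is known to be stabilised when cytosolic iron is low. Fth1, the heavy chain of the iron store ferritin, was at 2673, 3689 and 3582 in D_DXZ and 1735, 1344 and 1191 in D_MgHCF (log2 fold change -1.22, standard error 0.30, adjusted p = 0.00701), with the groups apart, but its direction turned with quantile normalization (0.14) and its call was lost with TPM (-0.18). Hmox1, which releases iron from haem, was at 13.2, 7.63 and 6.84 in D_DXZ and 24.9, 47.6 and 94.8 in D_MgHCF (log2 fold change 2.32, standard error 0.44, adjusted p = 0.00191), and in Unt at 33.2, 38.97 and 40.2. Bach1, a haem-sensing repressor of Hmox1, rose by 1.52 as well.

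Ferroptosis is a form of death by iron-dependent lipid peroxidation, which glutathione and GPX4 hold back. Of 24 genes of this lipid and thiol metabolism, 13 were lower and 4 higher (median -0.62, with TPM 3 lower and 9 higher). Gpx4, the lipid peroxidase, was at 294, 398 and 389 in D_DXZ and 215, 180.3 and 171 in D_MgHCF (log2 fold change -0.93, standard error 0.21, adjusted p = 0.00489). Its sign turned with TPM (0.11, not called), still below the median of 0.85 over all genes tested. With quantile normalization it was called higher (0.40), and it has 2 near-identical copies. Gclc, which makes the first step of glutathione synthesis, was at 9.44, 12.6 and 11.5 in D_DXZ and 43.6, 52.8 and 25.3 in D_MgHCF (log2 fold change 1.72, standard error 0.27, adjusted p = 0.000803), and Gch1, the first enzyme of tetrahydrobiopterin synthesis, rose by 1.78. Coq2, of coenzyme Q synthesis, fell by 2.35. With a filter at a mean FPKM of at least 5 the list median lay 0.0082 above that of all genes.

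NRF2, encoded by Nfe2l2, is the factor that switches on antioxidant genes. Nfe2l2 was at 8.86, 7.22 and 7.299 in D_DXZ and 15.8, 16.1 and 15.97 in D_MgHCF (log2 fold change 0.95, standard error 0.17, adjusted p = 0.00127), close to 17.3, 17.2 and 16.6 in Unt. Of 31 of its targets, 16 were lower and 7 higher (median -0.70, with TPM 6 lower and 12 higher). Srxn1, which reactivates peroxiredoxins, was at 9.18, 11.5 and 11.5 in D_DXZ and 32.2, 51.7 and 43.3 in D_MgHCF (log2 fold change 1.87, standard error 0.21, adjusted p = 0.000222), and Hmox1 and Gclc rose as given above. In contrast, Me1, an NADPH-producing enzyme, fell by 2.19 and Txn1, thioredoxin, by 1.65, the latter a call that was lost with quantile normalization (-0.21). The peroxidases, superoxide dismutases and catalase were lower in 12 and higher in 0 of 13 cases (median -1.30). Prdx1, a peroxiredoxin of the cytosol, was at 423, 531 and 567 in D_DXZ, 203, 169 and 112 in D_MgHCF and 101, 109 and 107 in Unt (log2 fold change -1.68, standard error 0.26, adjusted p = 0.0008), and Gpx8 and Prdx6 fell by 1.91 and 1.45. With quantile normalization 5 of the 13 were lower and 4 higher, and with TPM 3 and 1.

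Genes for other metals showed no common direction. Of 14 magnesium transport genes, 5 were higher and 5 lower (35.7% each, median 0.16), near the share over all genes. Cnnm2, a magnesium transporter of the cell membrane, was at 1.79, 1.42 and 1.01 in D_DXZ and 13.9, 15.9 and 10.7 in D_MgHCF (log2 fold change 2.59, standard error 0.21, adjusted p = 0.000109), and Slc41a1, a sodium-magnesium exchanger, rose by 1.64. Trpm7, a channel with its own kinase, was at 12.4, 12.4 and 13.9 in D_DXZ and 3.101, 2.94 and 4.53 in D_MgHCF (log2 fold change -1.64, standard error 0.19, adjusted p = 0.000259), and Magt1 fell by 1.72. Of 17 metallothionein and zinc transporter genes, 4 were higher and 5 lower (23.5% and 29.4%, median -0.14), again near the share over all genes. The metallothionein gene Mt1 was at 90.97, 114 and 116 in D_DXZ and 48.7, 46.9 and 46.96 in D_MgHCF, a fall of 1.15 that was not called with TPM or quantile normalization, whereas its activator Mtf1 rose by 1.39.

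The integrated stress response slows translation and switches on ATF4, which in turn activates amino acid synthesis. Of 27 genes of this response, 7 were higher and 11 lower (median -0.46). Among the members that rose were Atf3, given above, and Gdf15, a secreted stress cytokine, at 5.92, 4.697 and 2.39 in D_DXZ and 32.3, 28.3 and 47.96 in D_MgHCF (log2 fold change 2.83, standard error 0.30, adjusted p = 0.00018). Sesn2, which restrains mTORC1, rose by 1.88. Among the members that fell was Asns, which makes asparagine, at 179.9, 256 and 198 in D_DXZ and 80.7, 55.7 and 63.8 in D_MgHCF (log2 fold change -1.65, standard error 0.22, adjusted p = 0.000381). Psat1, an enzyme of serine synthesis, fell by 1.72 and the factor gene Atf5 by 2.05. With quantile normalization the list median lay above that of all genes, at 0.25.

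In the unfolded protein response of the endoplasmic reticulum, 14 of 28 genes were lower and 5 higher (median -0.58, with TPM 5 lower and 14 higher). Xbp1, a factor that drives this response, was at 5.13, 2.68 and 2.65 in D_DXZ and 16.2, 21.5 and 13.01 in D_MgHCF (log2 fold change 2.01, standard error 0.27, adjusted p = 0.000388). Dnajb9, a cochaperone induced by it, was at 2.697, 2.96 and 2.53 in D_DXZ and 28.1, 32.3 and 6.39 in D_MgHCF, with a log2 fold change of 2.37 that became 3.06 without D_MgHCF replicate 3. Pdia3, a protein disulphide isomerase, was at 452, 615 and 637 in D_DXZ and 226, 174 and 147 in D_MgHCF (log2 fold change -1.64, standard error 0.24, adjusted p = 0.000631). Hsp90b1, a chaperone of the same compartment, fell by 1.84, a call that was lost with quantile normalization (-0.66). With quantile normalization 3 genes of this list were lower and 8 higher. Heat shock proteins were lower in 16 and higher in 3 of 29 cases (median -0.66, with TPM 7 lower and 9 higher). The constitutive chaperone gene Hspa8 was at 488, 540.1 and 607 in D_DXZ and 72.01, 61.6 and 71.1 in D_MgHCF (log2 fold change -2.98, standard error 0.19, adjusted p = 9.36e-05), and Hspa4 and Hspd1 fell by 2.70 and 2.39. Dnajb1, a heat-inducible cochaperone, was at 7.501, 6.17 and 5.66 in D_DXZ and 15.4, 22.5 and 20.97 in D_MgHCF and rose by 1.46, and Hspb8 by 1.15. Hspa8 has 10 near-identical copies in the annotation, and Hspd1 and Hsp90b1 have 1 each.

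Members of the BCL2 family decide on the release of cytochrome c from mitochondria. Of 14 tested, 8 were higher and 3 lower (median 0.60), among both guardians and killers. Bcl2l1, which encodes the survival protein BCL-XL, was at 2.15, 2.03 and 1.83 in D_DXZ, 9.01, 9.097 and 8.77 in D_MgHCF and 5.31, 5.26 and 5.94 in Unt (log2 fold change 1.73, standard error 0.17, adjusted p = 0.000133). Bcl2l11, which encodes the opposing BH3-only protein BIM, was at 2.499, 4.096 and 4.01 in D_DXZ and 16.98, 16.1 and 9.34 in D_MgHCF (log2 fold change 1.72, standard error 0.26, adjusted p = 0.000741), and the BH3-only genes Bid and Bmf rose by 1.84 and 1.87. The effector gene Bax was at 66.7, 77.6 and 78.9 in D_DXZ and 37.5, 36.1 and 56.98 in D_MgHCF (log2 fold change -0.79, standard error 0.21, adjusted p = 0.0109). The call of Bax was lost without D_MgHCF replicate 2 (-0.67). Its sign turned, without a call, with TPM (0.24) and quantile normalization (0.077). The TPM value lay below the median of 0.85 over all genes tested.

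Caspases, their activating complex and their inhibitors were higher in 8 and lower in 7 of 26 cases (median -0.03), near the share over all genes. Casp12, a caspase of the endoplasmic reticulum, was at 8.42, 11.98 and 11.9 in D_DXZ, 1.35, 0.992 and 1.81 in D_MgHCF and 4.17, 3.22 and 3.46 in Unt (log2 fold change -2.30, standard error 0.22, adjusted p = 0.00013). Apaf1, the scaffold of the apoptosome, was at 1.76, 1.51 and 1.21 in D_DXZ and 6.01, 6.84 and 8.19 in D_MgHCF (log2 fold change 1.68, standard error 0.19, adjusted p = 0.000223), and Birc2, an inhibitor of apoptosis, rose by 1.52, as did the apoptotic nuclease gene Dffb by 2.32. Cycs, cytochrome c, and Aifm1, the apoptosis-inducing factor of mitochondria, fell by 1.17 and 1.25, and neither was called with TPM. Parp1, a sensor of DNA breaks that caspases cut, was at 81.6, 100.4 and 107 in D_DXZ and 52.05, 38.3 and 37.1 in D_MgHCF (log2 fold change -1.17, standard error 0.20, adjusted p = 0.00124), and it was not called with TPM (-0.15). Parp1, Cycs, Bax, Casp12, Bcl2l1, Apaf1, Bcl2l11, Bid and Aifm1, like Trp53, Tfrc, Fth1, Gpx4, Hmox1 and Nfe2l2 above, were named by the study from these samples, so their directions are not independent evidence.

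In DNA damage signalling and repair 19 of 44 genes were lower and 5 higher (median -0.25, with TPM 5 lower and 21 higher). Parp2, a relative of Parp1, was at 10.5, 11.5 and 11.9 in D_DXZ and 1.21, 0.476 and 2.08 in D_MgHCF (log2 fold change -2.51, standard error 0.27, adjusted p = 0.00018), and Fanci, of crosslink repair, fell by 1.95. Top3a, a topoisomerase that resolves recombined strands, was at 2.73, 2.97 and 3.403 in D_DXZ and 16.4, 16.5 and 13.9 in D_MgHCF (log2 fold change 2.04, standard error 0.17, adjusted p = 0.000118). DNA replication and nucleotide synthesis genes were lower in 27 and higher in 4 of 49 cases (median -0.86, with TPM 8 lower and 18 higher). Rrm1 (ENSMUSG00000030978, chromosome 7 from 102441695 to 102469771), the large subunit of ribonucleotide reductase, which makes the building blocks of DNA, had the largest fall among the genes named by size. It was at 55.3, 59.4 and 69.8 in D_DXZ, 2.101, 1.62 and 5.14 in D_MgHCF and 25.7, 25.9 and 26.8 in Unt, a mean ratio of 20.8 in favour of D_DXZ (log2 fold change -4.08, standard error 0.30, adjusted p = 9.36e-05). The helicase gene Mcm2 fell by 2.09 and the thymidine kinase gene Tk1 by 2.42, while Orc1, of the origin recognition complex, rose by 1.55.

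Mitosis genes moved in both directions, with 14 of 41 higher and 10 lower (median 0.30). These shares were 34.1% and 24.4%, compared with 29.2% and 34.9% over all genes. Plk1, a kinase of mitotic entry, was at 18.7, 11.03 and 10.5 in D_DXZ, 48.9, 53.8 and 42.9 in D_MgHCF and 50.8, 53.4 and 58.98 in Unt (log2 fold change 1.82, standard error 0.23, adjusted p = 0.000348), and Incenp, of the chromosomal passenger complex, rose by 1.45. Anln, of the contractile ring, was at 37.2, 35.4 and 41.5 in D_DXZ and 6.99, 7.33 and 9.19 in D_MgHCF (log2 fold change -2.15, standard error 0.17, adjusted p = 0.000103). Replication-dependent histone mRNAs, which lack a poly(A) tail and are poorly captured by poly(A) selection, were lower in 10 and higher in 3 of 29 cases (median -0.24). The linker histone gene Hist1h1c fell by 2.38. Without D_MgHCF replicate 3 the counts were 10 lower and 11 higher, with a median of 0.08.

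The lowest median of the 43 lists was that of the actin and contractile cytoskeleton, with 28 of 30 genes lower and 0 higher (median -1.56, middle 50% from -2.17 to -1.18). Actg1, cytoplasmic gamma actin, was at 1256, 1397 and 1624 in D_DXZ, 169, 143 and 195 in D_MgHCF and 281, 348 and 349 in Unt (log2 fold change -3.07, standard error 0.23, adjusted p = 9.36e-05), although 8 near-identical copies could share its reads. Tpm1, a tropomyosin that lies along actin filaments, was at 341, 372 and 437 in D_DXZ and 73.7, 57.6 and 61.4 in D_MgHCF (log2 fold change -2.56, standard error 0.19, adjusted p = 9.36e-05), and the intermediate filament gene Vim fell by 2.70. With TPM 16 of the genes were lower and 1 higher. Collagens, matrix proteins and proteases were lower in 29 and higher in 2 of 37 cases (median -1.30). Col1a2, a chain of type I collagen, was at 34.2, 33.8 and 42.3 in D_DXZ and 6.704, 4.195 and 2.73 in D_MgHCF (log2 fold change -2.82, standard error 0.27, adjusted p = 0.00013), and Loxl1, which crosslinks elastin, fell by 2.19. The summed FPKM of 9 fibroblast markers, which include collagen genes, was 87.1 to 133 in D_DXZ and 43.8 to 69.5 in D_MgHCF, with Tcf21 at 0 in the 6 libraries. Col1a1 and Col3a1 made up most of this sum, while Pdgfrb, a marker outside the matrix, was at 8.12, 5.95 and 7.07 in D_DXZ and 8.64, 7.92 and 16.3 in D_MgHCF. The part of the fibroblast markers in the result was not tested. Of 35 cardiac and skeletal muscle genes 5 passed the filter on low values, of which 2 were higher. They were Gata4, a heart transcription factor, at 3.67, 2.78 and 2.36 in D_DXZ and 14.2, 17.9 and 25.5 in D_MgHCF (log2 fold change 2.33, standard error 0.24, adjusted p = 0.000165), and Mef2d, higher by 1.21.

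Genes of NF-kB and of secreted inflammatory signals went both ways, with 9 of 23 higher and 6 lower (median 0.30). Cxcl10, an interferon-induced chemokine, was at 6.49, 3.32 and 2.93 in D_DXZ and 8.27, 15.3 and 31.01 in D_MgHCF (log2 fold change 1.75, standard error 0.43, adjusted p = 0.00705), and the inhibitor gene Nfkbie rose by 1.75. Cxcl12, the ligand of CXCR4, was at 42.2, 59.5 and 53.5 in D_DXZ and 15.01, 9.96 and 5.74 in D_MgHCF (log2 fold change -2.30, standard error 0.30, adjusted p = 0.000379), and Cxcl5, which attracts neutrophils, fell by 2.87. Among the 12 largest rises by the rule were the interferon-induced genes Oas1c, at 0.695, 1.08 and 0.872 in D_DXZ and 23.3, 19.3 and 18.5 in D_MgHCF, and Igtp, at 6.89, 5.62 and 4.74 in D_DXZ and 40.3, 60.98 and 70.3 in D_MgHCF, with mean ratios of 23.1 and 9.95. Oas1c has 3 near-identical copies and Igtp overlaps Irgm2, so these values are uncertain. The remaining large rises were those of Efna1, an ephrin ligand (3.25), Cdc42ep2, an effector of CDC42 (3.24), Foxj1, a factor of ciliated cells (3.22), Fam212a (3.19), Mad2l1bp, which silences the mitotic checkpoint (3.07), and Itpka, an inositol phosphate kinase (3.04). The remaining large falls were those of Sumo2, a protein modifier (-3.59, with 12 near-identical copies), Anxa3, an annexin (-3.10), Cetn3, a centrin (-3.01), Spop, a ubiquitin ligase adaptor (-2.91), and Prkg2, a cyclic GMP-dependent kinase (-2.89).

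The comparison of DOX with Unt rests on the other 6 libraries, so it shares none with the comparison of the protectants. In limma, 4911 genes were higher (42.7%) and 4806 lower (41.7%), together 84.4%, in DOX among 11514 genes tested. A total of 11020 genes were tested in both comparisons. Of the 4840 genes that were higher in DOX, 3250 (67.1%) were lower in D_MgHCF than in D_DXZ and 295 (6.1%) higher, with a median log2 fold change of -0.92. Of the 4452 genes that were lower in DOX, 2222 (49.9%) were higher in D_MgHCF than in D_DXZ and 309 (6.94%) lower, with a median of 0.59. The 1728 genes not called in DOX were higher in 25.8% and lower in 28.2% of cases. Across genes, which are not independent replicates, the Pearson correlation of the log2 fold changes was -0.654. With TPM scaling, which moved the median of all genes by -1.26 in DOX against Unt, 36.4% of the genes higher in DOX were lower in D_MgHCF and 63.1% of those lower in DOX were higher. Their background also differed, with 6170 of all 11652 genes higher and 1086 lower in D_MgHCF. Genes not called in DOX under TPM were higher in 27.2% and lower in 16.3% of cases.

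**Figure D3:**
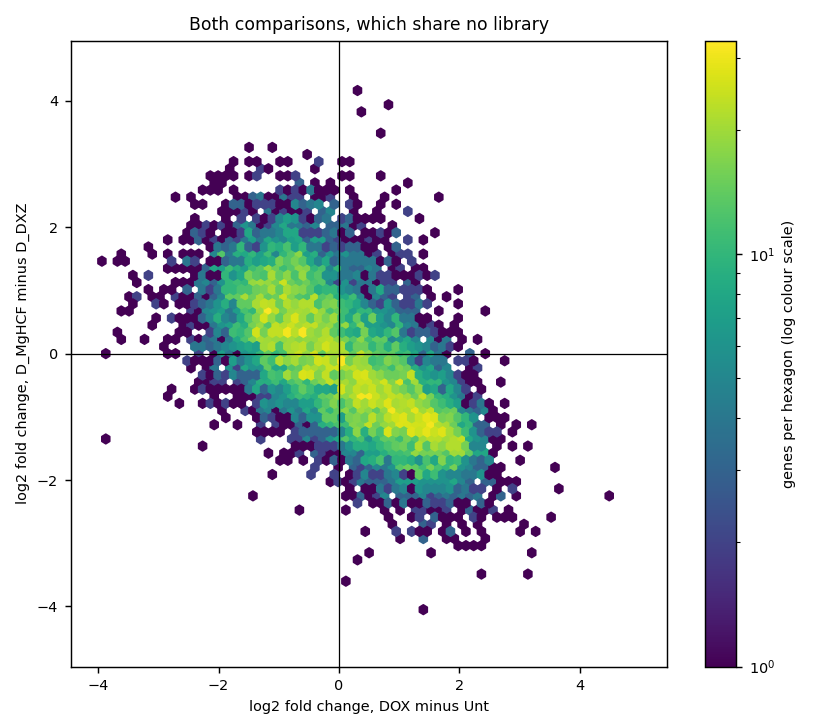
Log2 fold change of D_MgHCF minus D_DXZ (y axis) against that of DOX minus Unt (x axis) for 11020 genes tested in both comparisons, with the colour giving the number of genes per hexagon on a log scale. Genes beyond the drawn range, among them Rn7sk, mt-Rnr1, mt-Rnr2 and Trib3, are not shown. Most genes lie in the upper left and lower right quadrants, with a Pearson correlation of -0.654 across genes.

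Several lists had medians of opposite sign in the comparisons. Cytosolic ribosomal proteins had a median of 1.61 in DOX minus Unt and -1.33 in D_MgHCF minus D_DXZ. The corresponding medians were 1.59 and -1.22 for the nuclear-encoded respiratory chain, 2.02 and -1.56 for the actin cytoskeleton, and -1.11 and 0.57 for the clock genes. The immediate early genes had -1.09 and 1.74. The aminoacyl-tRNA synthetases had 0.57 and -1.55. Other lists had the same sign in both, among them the ATF4 response (-1.25 and -0.46), RNA polymerase I and the nucleolus (-0.52 and -0.60) and DNA damage (-0.34 and -0.25). The ATF4 median in D_MgHCF minus D_DXZ was 0.25 with quantile normalization. All these signs hold for the deposited scaling and depend on it. With TPM the median of all genes moved by 0.935 in D_MgHCF minus D_DXZ and by -1.26 in DOX minus Unt. The nucleolar and DNA damage lists then had more genes higher than lower in D_MgHCF, as given above. So had all 11652 genes tested, with 6170 higher and 1086 lower. These counts thus do not show that the lists turned relative to the other genes. The list medians of DOX minus Unt were taken with the deposited scaling alone, so the division by sign was not tested under TPM.

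The position of a gene in this comparison was related to its abundance in untreated cells, a measure that neither group enters. Among 10032 protein-coding genes outside the mitochondrial genome, the median log2 fold change in 5 equal bins by Unt FPKM was 0.55 in the lowest bin, then 0.25, 0.05 and -0.23, and -1.03 in the highest bin, where 66.9% were lower and 9.92% higher in D_MgHCF. The Spearman correlation across genes was -0.427, given as a description. The filter, which keeps low genes that are high in a single group, acts on the lowest bin. With TPM the highest bin minus the lowest was -1.57, against -1.58 with the deposited scaling. Exonic gene length and genomic span gave little order, with Spearman correlations of 0.0333 and -0.0413. By exonic length the median was -0.21 in the lowest bin and between -0.05 and 0.06 in the others. The 268 genes without an intron in the gene model had a median of 0.53, compared with -0.05 for the 9764 genes with introns.

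**Figure D4:**
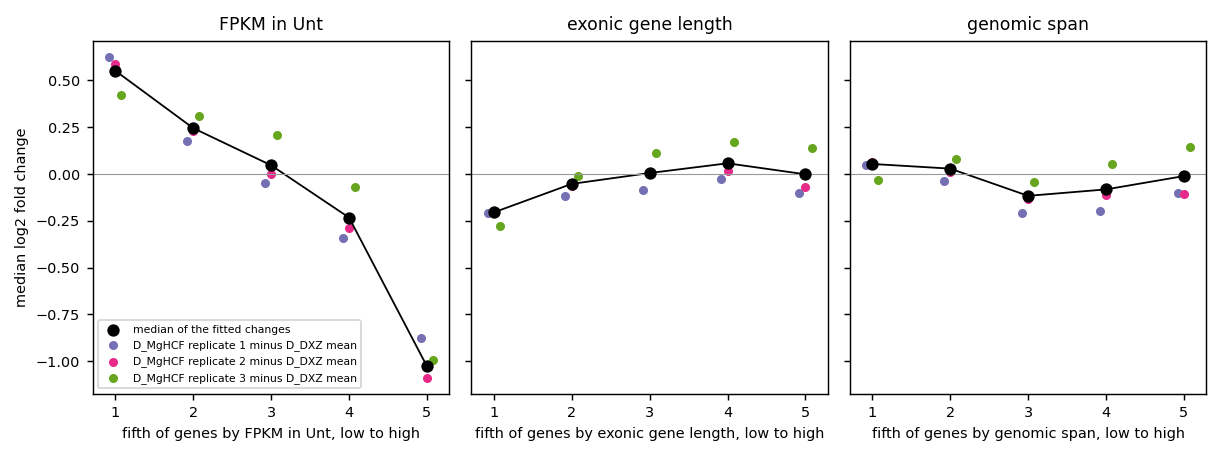
Median log2 fold change of D_MgHCF minus D_DXZ (y axis) in 5 equal bins of the protein-coding genes by Unt FPKM, exonic gene length and genomic span (x axes, low to high). Black points are medians of the fitted changes and coloured points those of each D_MgHCF library against the D_DXZ mean. In each library the median falls from the lowest to the highest bin by Unt FPKM, whereas the other features show no such steady fall.

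Gene types differed as well. Of 149 antisense transcripts tested, 82 (55%) were higher and 17 lower, with a median of 0.81, although antisense reads cannot be told from those of the sense gene without strand information. Of 159 lincRNAs, 65 (40.9%) were higher and 37 lower. Of 723 processed pseudogenes, which resemble abundant mRNAs, 460 (63.6%) were lower and 40 higher. Protein domain families annotated in the file were examined after the values were seen. Over all 4720 tested genes with a family, 30.9% were higher and 32.4% lower. Families with a large share of higher genes were the rhodopsin-like receptors (21 of 29), the forkhead factors (15 of 22), the homeobox factors (17 of 24) and the SH2 domain proteins (12 of 21, with 0 lower). Families with a large share of lower genes were the GTP-binding elongation factors (17 of 21), the cadherins (16 of 22), the cyclophilin-type isomerases (17 of 25) and the proteins with an RNA recognition motif (89 of 141). Shares of higher and lower genes also differed with abundance, and the filter keeps genes that are high in a single group. The part of abundance and of the filter in the shares by gene type and family was not tested.

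Letters of 6 motifs were counted on both strands in the RefSeq promoters of 8175 genes tested, from 250 bases before to 50 bases after the first start listed for each gene. The shares were close between genes called higher and lower, at 3.8% and 3.4% for TGACGTCA, 5.92% and 7.48% for TATAAA, 10.4% and 11.1% for CACGTG, 15.1% and 15.7% for TGACNNNGC, 4.94% and 4.86% for TGANTCA, and 42.8% and 38.5% for CCAAT. Over all 27025 promoters of the table the shares were 1.88%, 14.2%, 7.24%, 12.5%, 7.93% and 37.9% in the same order. Within the immediate early genes, 7 of 24 promoters (29.2%) held TATAAA, compared with 6.31% of the promoters of genes tested, and 2 of 24, those of Btg2 and Dusp1, held TGACGTCA. CCAAT stood in 19 of 24 promoters of the unfolded protein response (79.2%) and in 16 of 19 of cholesterol synthesis (84.2%), compared with 39.7% of genes tested. These lists were picked after the shares were seen. A match is a description of the letters and not a site of binding.

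**Figure D5:**
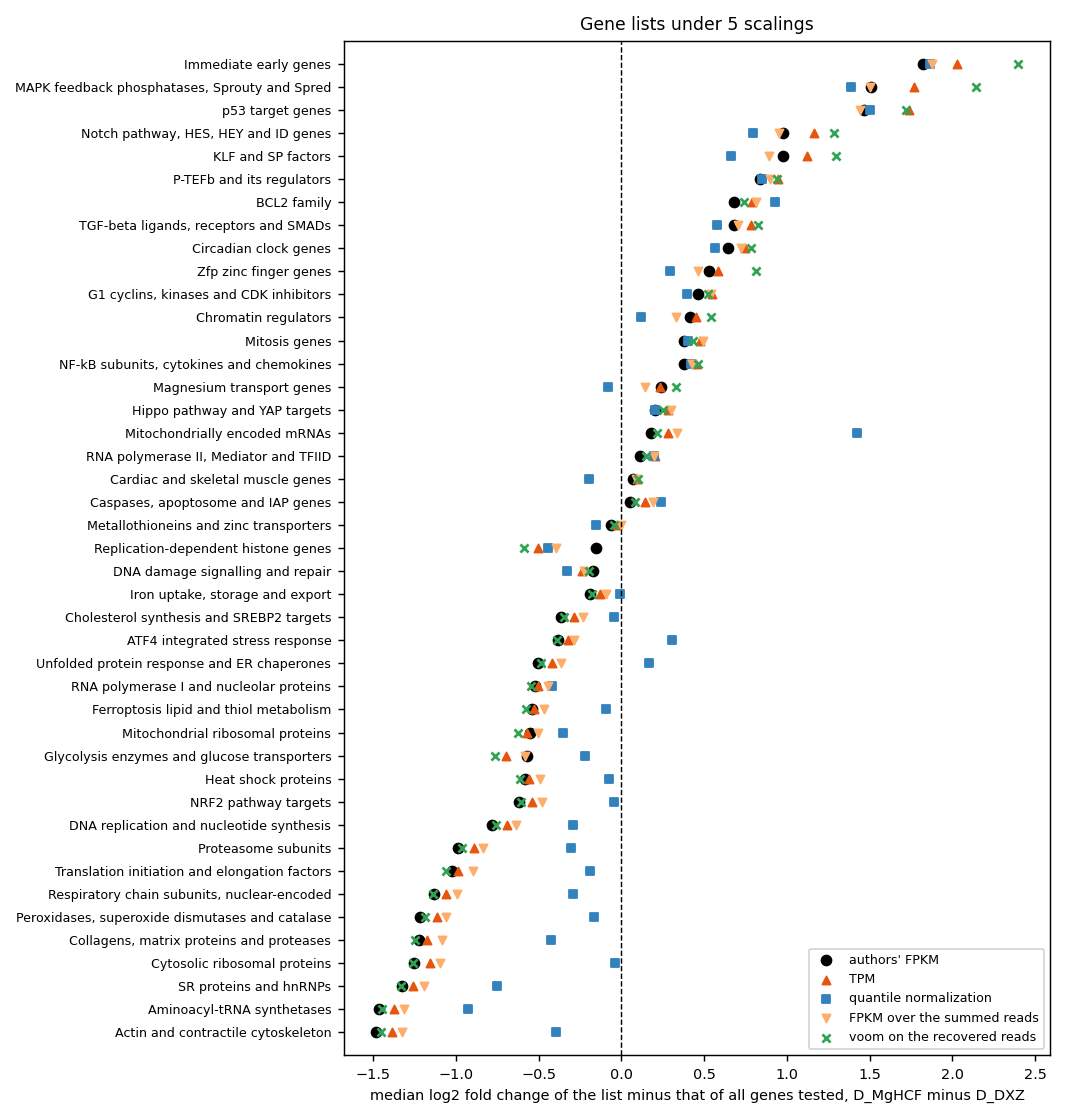
Median log2 fold change of each of the 43 lists minus the median of all genes tested (x axis), for the deposited FPKM and for 4 other scalings. Quantile normalization moves the lists of abundant genes towards 0, for example the ribosomal proteins to -0.04, and the mitochondrial mRNAs to 1.42.

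Relative to the median of all genes tested, 27 of the 43 lists lay at least 0.5 away on the log2 scale. Of these, 25 stayed on their side of that median in each of the 18 alternatives, and the other two were the ferroptosis list (with a filter at a mean FPKM of at least 5) and the unfolded protein response (0.17 with quantile normalization). Apart from those named by the study, the 151 genes given by name and examined in the alternatives were picked because they were called, mostly with large changes. That all 151 were called was thus largely set by the choice. Of the 151, 135 were called in each of the 18 alternatives with the same sign, a share that does not stand for all genes tested. Reads of 32 of these genes could be shared with a near-identical copy, and 63 overlap another gene in the annotation.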

How the data were processed

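RNA was extracted after 6 h and poly(A) mRNA libraries were sequenced by the authors, 3 per group. The submitters' processing notes name HISAT2 2.0.5, and the deposited values are FPKM per gene of the mouse annotation (GRCm38). Whether counting used strand is not given in the sources used here. Division of the deposited FPKM by the worth of 1 read gave whole numbers, within 0.01, for 100% of values, and hence the depth and the scaling of each library. FPKM are not counts, so log2(FPKM + 1) of the 6 libraries was fitted with limma 3.58.1 (limma-trend, R 4.3.3) and p-values were adjusted by Benjamini-Hochberg over 11652 genes, with an adjusted p under 0.05 as the threshold. The same fit was made for DOX and Unt. The script was tested on simulated data. Near-identical copies were found with BLAST 2.17.0 (minimum identity 95%, 150 bases and 30% of the transcript). The named genes were the 12 largest rises and falls among called protein-coding genes with no overlap between the groups and a mean FPKM that reached 10 in either group, up to 3 rises and 3 falls in each list, and genes named by the study, and part of these are given. Some genes under this rule are not reported here. The comparison, lists and genes were chosen with earlier results of these data known. Alternatives were other pseudocounts, filters, scalings and library sets.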

Additional observations from a re-analysis of the deposited data

How the results depend on the processing

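The main counts were 3400 genes higher and 4066 lower in D_MgHCF than in D_DXZ. They became 2050 and 2505 with a 2-fold minimum, 6170 and 1086 with TPM, and 5465 and 1731 with FPKM over the summed reads, 5695 and 1488 with TPM over protein-coding genes, which was chosen after seeing the data, and 1570 and 3210 with a mean FPKM of at least 5. With genes above 0 in at least 3 libraries they were 4720 and 3942 and without a filter 3805 and 3539, so that more genes were higher than lower. Leaving out 1 library gave 2702 to 3775 higher and 3361 to 4616 lower genes. For DOX against Unt (4911 and 4806) the counts were 2722 and 2287 with a 2-fold minimum, 1513 and 8457 with TPM, and 2567 and 7375 with the summed reads, 1953 and 8003 with TPM over protein-coding genes, and 3937 and 2091 with a mean FPKM of at least 5. The share of genes higher in DOX that were lower in D_MgHCF (67.1%) became 36.4% with TPM, 44.1% with the summed reads and 43.5% with TPM over protein-coding genes, and the share of genes lower in DOX that were higher in D_MgHCF (49.9%) became 30.8% without a filter. The counts over all genes, given above, moved with these settings as well. The cause was not tested. Sign changed for Fth1 with quantile normalization (0.14), for Gpx4 with TPM (0.11) and quantile normalization (0.40), for Bax with TPM (0.24), quantile normalization (0.077) and TPM over protein-coding genes (0.071), and for Trp53 with TPM (0.17). Of these values only that of Gpx4 with quantile normalization was called. The TPM values lay below the median of 0.85 over all genes tested. Labels give the same replicate numbers to each group, but same-numbered deviations correlated at -0.414, 0.0449 and -0.133, so the numbers were not taken to pair the samples. With the replicate number as a block 3127 genes were higher and 3728 lower, and of the named genes mt-Cytb, Fth1 and Psmb8 were not called (limma adjusted p of 0.208, 0.0937 and 0.0645). Without a filter Id2 and Polr2a were not called (limma adjusted p of 0.062 and 0.0637), and mt-Cytb, Fth1 and Psmb8 were not called without a filter or with genes above 0 in at least 3 libraries. The edgeR alternative on recovered reads was not run, and voom on those reads, chosen after seeing the data, gave 3689 and 3680. A depth of 16626514 to 18107499 reads limits genes near an FPKM of 1.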
